A study of Mus musculus with 4 samples.

Results

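Secondary (specific) and tertiary (gelatinase) granules are the stores that a maturing neutrophil fills after the primary granules of the promyelocyte. Their genes were followed in mouse leukemic cells carrying the MLL-AF9 fusion, with and without Ezh2. The 10 genes were Fcnb, Ltf, Lcn2, Camp, Ngp, Mmp8, Mmp9, Cybb, Cyba and Padi4. Their members on the array were the probe sets whose single gene symbol in the platform's annotation was one of these names. This gave 10 of the 18193 genes named by such probe sets, and 13 of the 45101 probe sets in the table. Cybb was read by 3 probe sets, Mmp9 by 2 and each other gene by 1. The product of Padi4 acts in the nucleus and cytoplasm and is not a granule protein. Cybb and Cyba are also expressed by monocytes and macrophages.

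The study compared 2 arrays of wild-type leukemic cells (WT) with 2 arrays of Ezh2 KO leukemic cells, all of them transformed with MLL-AF9, grown in C57BL/6 recipients and taken from their marrow. Ezh2 is the methyltransferase of Polycomb repressive complex PRC2, which marks histone H3 for gene silencing. The labels of the Ezh2 KO samples conflict: the genotype entry names Ezh2, while the protocol entry says that their recipients had received Ink4a-/-Arf-/- marrow, and that of the WT samples names wild-type marrow. Whether an Ink4a/Arf deletion separates the groups as well cannot be told from the labels. Separate animals or leukemias are not stated for the samples of a group, so every p-value here reflects the spread between these 4 samples alone, which may be technical. The deposited values are probe set intensities in arbitrary linear units, and each array had been scaled to one trimmed mean (500 units, 2% cut at each end). On the scale of log2(intensity + 16), arrays of a group correlated at 0.981 in both groups and arrays of different groups at 0.972 to 0.975, over 31526 probe sets that are not independent. The single Ezh2 probe set read 5216 and 5315 in WT and 4989 and 4991 in Ezh2 KO, a log2 change of -0.08 (adjusted p = 0.555). Where its probes lie with respect to the deletion is unknown, and the probe set therefore checks nothing about the labels. The blast markers Hoxa9 and Kit, bright in both groups, had log2 changes of 0.17 each (adjusted p = 0.166 and 0.225). Of 5 tested blast markers 0 passed in limma by their brightest probe sets, with a median log2 change of 0.17. At an unadjusted p under 0.05, 3 were higher and 0 lower. For Meis1, 1 of 3 probe sets, not its brightest, was called higher.

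As background, neutrophil granule proteins are sorted by the time at which they are made. The primary granule genes come first, then the specific granule genes that depend on the transcription factor C/EBP-epsilon, and last the gelatinase granule genes. MLL-AF9 blasts are arrested early in the myeloid series and usually keep an immature granulocyte and monocyte programme. Whether the changes below reflect how far the leukemic cells had matured was not tested. The RNA came from bulk cells: fewer cells of a type and less RNA per cell cannot be told apart in any result below.

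The promoters of the members that moved are shown first, because the genes of a granule class share regulators. RefSeq (GRCm38.p6) promoter entries were found for 9 of the 10 genes. The 250 bases before the transcription start are printed for the 4 genes whose RNA was higher in Ezh2 KO and that have an entry (Fcnb, Lcn2, Camp and Ngp) and for the 2 whose RNA was lower (Cybb and Padi4). Capitals mark matches, on either strand, to a C/EBP motif (TTGCNNAA), a form of a PU.1 motif (AGGAAG) and an AP-1 motif (TGANTCA). None of the matches overlap. Other forms of these motifs were not searched for and stand in lower case.
Fcnb, chr2:28084879-28085128, minus strand: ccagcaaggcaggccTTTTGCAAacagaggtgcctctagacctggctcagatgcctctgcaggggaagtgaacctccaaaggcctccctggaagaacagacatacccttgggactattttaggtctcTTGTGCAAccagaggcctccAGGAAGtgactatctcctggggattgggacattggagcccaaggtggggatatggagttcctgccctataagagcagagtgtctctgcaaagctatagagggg
Lcn2, chr2:32387740-32387989, minus strand: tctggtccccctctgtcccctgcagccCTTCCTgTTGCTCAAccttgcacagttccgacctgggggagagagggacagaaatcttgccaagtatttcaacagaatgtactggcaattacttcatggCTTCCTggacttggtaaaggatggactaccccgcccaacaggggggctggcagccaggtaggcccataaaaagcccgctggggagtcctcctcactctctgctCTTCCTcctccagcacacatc
Camp, chr9:109849457-109849706, minus strand: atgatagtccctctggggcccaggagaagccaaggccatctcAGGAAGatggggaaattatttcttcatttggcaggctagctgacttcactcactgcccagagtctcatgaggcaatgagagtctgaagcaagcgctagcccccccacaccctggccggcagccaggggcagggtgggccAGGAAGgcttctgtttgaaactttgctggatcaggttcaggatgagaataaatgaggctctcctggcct
Ngp, chr9:110419558-110419807, plus strand: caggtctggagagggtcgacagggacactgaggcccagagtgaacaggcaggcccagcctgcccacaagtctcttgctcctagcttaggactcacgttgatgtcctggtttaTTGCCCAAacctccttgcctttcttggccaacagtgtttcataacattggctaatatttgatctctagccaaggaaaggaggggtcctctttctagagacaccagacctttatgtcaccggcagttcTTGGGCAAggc
Cybb, chrX:9469325-9469574, minus strand: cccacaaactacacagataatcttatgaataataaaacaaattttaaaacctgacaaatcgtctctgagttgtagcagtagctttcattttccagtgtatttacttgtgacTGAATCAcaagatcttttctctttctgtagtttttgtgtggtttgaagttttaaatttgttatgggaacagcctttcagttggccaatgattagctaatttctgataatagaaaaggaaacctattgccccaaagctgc
Padi4, chr4:140774204-140774453, minus strand: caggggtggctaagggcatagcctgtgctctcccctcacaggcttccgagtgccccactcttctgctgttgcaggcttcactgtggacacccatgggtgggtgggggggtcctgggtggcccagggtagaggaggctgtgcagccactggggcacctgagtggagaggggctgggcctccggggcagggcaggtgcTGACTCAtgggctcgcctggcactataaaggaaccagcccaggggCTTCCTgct
The C/EBP letters stood in 5 of the 9 member promoters (Fcnb, Lcn2, Ngp, Ltf and Mmp8), and in 9.56% of 32851 promoters of the same length. Fcnb held them 235 and 123 bases before the start, Ngp 138 and 11 bases before it, and Lcn2 216 bases before it. Camp, Cybb, Cyba and Padi4 held no match in this window. The PU.1 letters AGGAAG stood in 6 of the 9 (29.5% of all promoters). The AP-1 letters stood in 2 of the 9 (Cybb and Padi4), and in 6.75% of all promoters. A match describes letters only and shows no binding.

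Of the 13 probe sets, 5 were higher and 3 lower in Ezh2 KO at a limma adjusted p under 0.05, and 5 did not pass. The higher ones read Fcnb, Lcn2, Camp, Ngp and Mmp9. The lower ones read Cybb (2 probe sets) and Padi4. Over all 31526 probe sets tested, 7.31% were called, 3.91% as higher and 3.39% as lower. The members' median log2 change was 0.21, against 0.04 over all probe sets. Their median absolute log2 change was 0.41, against 0.21 over all. The arrays of the groups did not overlap in 9 of the 13 probe sets, against 49.6% of all probe sets. All 13 passed the filter on low signal, a mean over the 4 arrays above 21.93 units. Every call rested on letting limma's variance prior change with intensity. When 1 prior was shared by every probe set, 0 calls were made by limma in the whole table, although 8 of the 13 members and 4978 of all probe sets had an unadjusted p under 0.05. For one probe set taken alone, an exact permutation test of 2 arrays against 2 cannot go below p = 0.333. With median centring of the arrays, 837 probe sets were called higher and 1662 lower, in place of 1234 and 1069, and the members' counts stayed at 5 and 3.

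**Figure D1:**
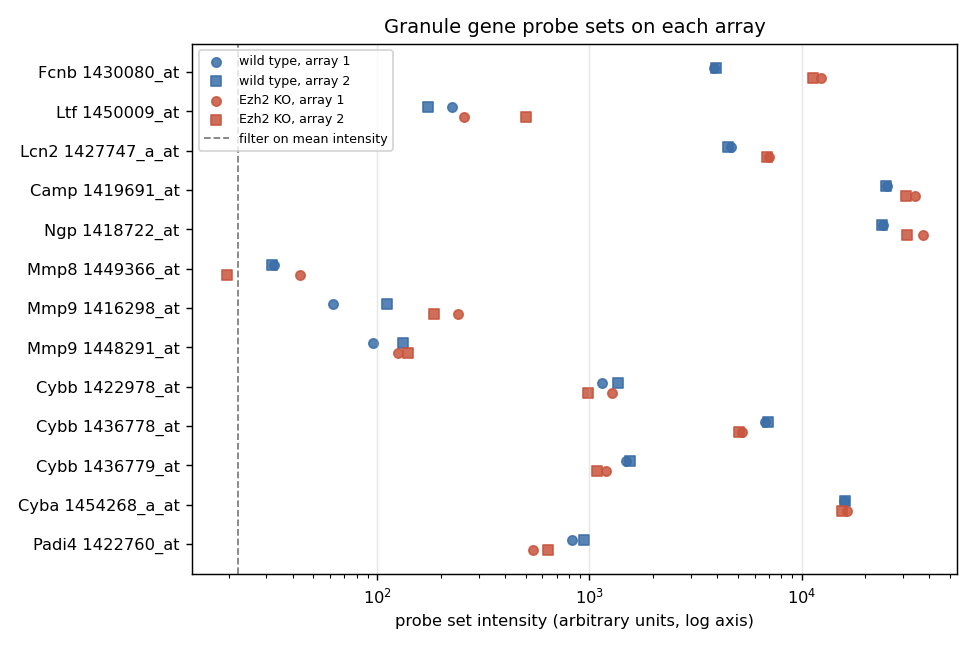
Intensity of each of the 13 probe sets on each array (horizontal log axis, arbitrary units), with WT arrays in blue and Ezh2 KO arrays in red, circles for array 1 and squares for array 2, and the filter of 21.93 units as a dashed line. The red points of Fcnb lie to the right of the blue ones at 12292 and 11315 against 3867 and 3964, while those of Cyba lie on top of each other.

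Of the matrix proteins that bind sugars and iron, Fcnb and Lcn2 were higher in Ezh2 KO and Ltf did not pass. Fcnb encodes ficolin B, a lectin that recognises microbial carbohydrates and can start the lectin pathway of complement. It read 3867 and 3964 units on the WT arrays and 12292 and 11315 on the Ezh2 KO arrays. Both Ezh2 KO arrays were far above both WT arrays: the smallest gap between groups was 1.51 on the log2 scale, and the arrays of a group differed by 0.036 and 0.12. The change was 3.00-fold (log2 change 1.59, SE 0.067, adjusted p = 2.89e-06). It passed under all 13 alternatives that kept the intensity-dependent prior, with log2 changes from 1.51 to 1.65.

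Lcn2 encodes lipocalin-2, which starves bacteria of iron by binding their siderophores. It read 4657 and 4522 units in WT and 7037 and 6880 in Ezh2 KO. The groups were apart by at least 0.56 on the log2 scale, and the arrays within them by 0.042 and 0.032. The change was 1.51-fold (log2 change 0.60, SE 0.063, adjusted p = 0.000615).

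Ltf encodes lactoferrin, the iron-binding protein that defines specific granules. It read 224 and 174 units in WT and 256 and 503 in Ezh2 KO. The groups did not overlap, but the closest arrays of different groups lay 0.18 apart on the log2 scale while the Ezh2 KO arrays lay 0.93 apart from each other. The log2 change of 0.81 (SE 0.27, 95% interval 0.21 to 1.42) had an unadjusted p of 0.0142 and did not pass after adjustment (adjusted p = 0.113). The value rests on Ezh2 KO replicate 2: without it the log2 change was 0.35 (adjusted p = 0.481), and without Ezh2 KO replicate 1 it was 1.28 (adjusted p = 0.000387). In these and all other fits that left out an array, the lone array of its group was assumed to vary like the other group. The smaller p thus takes no account of the 0.93 between the Ezh2 KO arrays and does not show that Ltf differed.

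The genes for the antimicrobial peptide precursor and its relative rose by small amounts at the top of the signal range. Camp encodes cathelicidin, which is cut to an antimicrobial peptide on release, and Ngp encodes neutrophilic granule protein, a relative of the cathelicidin precursor. Camp read 25318 and 25005 units in WT and 34109 and 31210 in Ezh2 KO, 1.30-fold higher (log2 change 0.37, SE 0.064, adjusted p = 0.00799). Ngp read 24272 and 23989 units in WT and 37210 and 31330 in Ezh2 KO, 1.41-fold higher (log2 change 0.50, SE 0.081, adjusted p = 0.00602). For both genes every Ezh2 KO array exceeded every WT array, by at least 0.30 for Camp and 0.37 for Ngp on the log2 scale. The Ezh2 KO arrays differed from each other by 0.13 and 0.25, more than the WT arrays (0.018 and 0.017). Both probe sets were above the 99.6th percentile of intensity on all 4 arrays, where a fluorescence scale can be compressed; the part of this in the small changes was not tested. Camp lost its call without a filter on low signal, which raised its adjusted p to 0.055.

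Camp, Ngp and Ltf lie near each other on chromosome 9, with 8 protein-coding genes between Camp and Ngp and 20 between Ngp and Ltf in RefSeq order. Around all 10 members, 71 other protein-coding genes lying within 5 genes on either side were tested by their brightest probe set. Of these 0 were higher and 2 were lower by limma (4 and 7 at an unadjusted p under 0.05), Mrps2 near Fcnb (log2 change -0.33) and Ctsa near Mmp9 (-0.35). By that same measure, one probe set a gene, 4.52% of 13928 genes were higher and 4.66% lower.

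**Figure D2:**
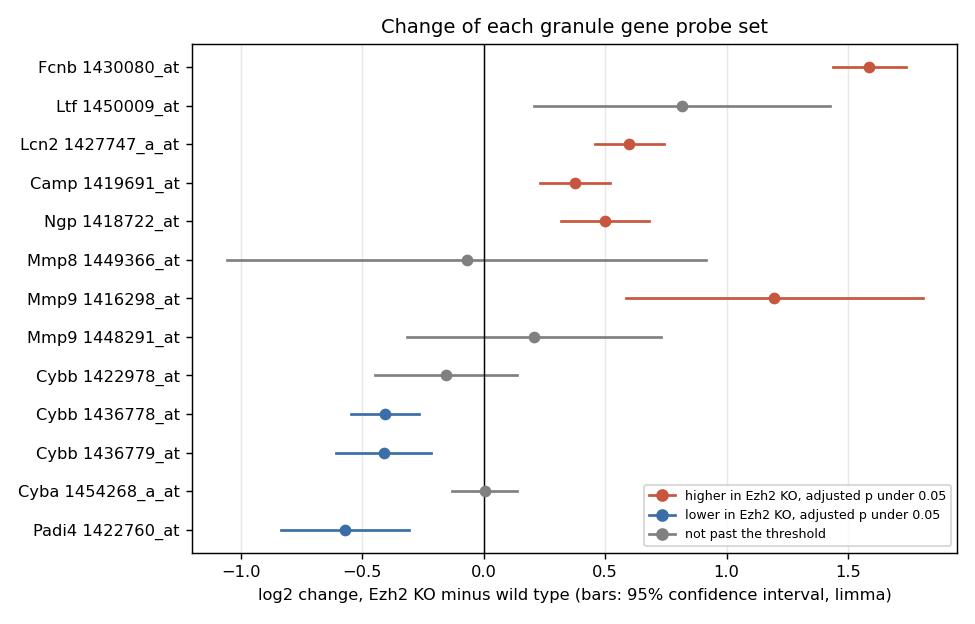
Log2 change of each probe set, Ezh2 KO minus WT (horizontal axis), with its 95% confidence interval from limma as a bar, in red or blue where it passed as higher or lower and in grey otherwise. Fcnb stands at 1.59 with a short bar, Mmp9 1416298_at at 1.20 with a long one, and the 2 called probe sets of Cybb both at -0.41.

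The metalloproteinases that dissolve matrix as neutrophils migrate were dim, and 1 of their 3 probe sets passed. Mmp9 encodes gelatinase B, the enzyme that defines gelatinase granules. Its probe set 1416298_at read 61.6 and 111 units in WT and 241 and 185 in Ezh2 KO, 2.29-fold higher (log2 change 1.20, SE 0.27, adjusted p = 0.0294). The groups did not overlap, but the WT arrays differed by 0.71 on the log2 scale, more than the closest arrays of different groups (0.66). Its other probe set, 1448291_at, annotated with the same transcript, read 95.2 and 132 units in WT and 126 and 139 in Ezh2 KO. There the groups overlapped (log2 change 0.21, 95% interval -0.31 to 0.73, adjusted p = 0.691). The difference between the probe sets was not tested. The call of 1416298_at was lost without WT replicate 1 (0.84, adjusted p = 0.0979), without Ezh2 KO replicate 1 (1.02, adjusted p = 0.0881) and without a filter (adjusted p = 0.0994). Mmp8, the neutrophil collagenase of specific granules, read 32.5 and 31.7 units in WT and 43.1 and 19.6 in Ezh2 KO. The lowest of these was under the filter of 21.93 units, so the probe set lay near the limit of what was measured, and its interval was wide (log2 change -0.07, 95% interval -1.06 to 0.92, adjusted p = 0.955).

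Of 18 other matrix metalloproteinases 14 had a probe set with a single symbol and 9 were tested, of which 0 passed in limma and 1 had an unadjusted p under 0.05, with a median log2 change of 0.03. The brightest were Mmp19 (log2 change -0.32, adjusted p = 0.444) and Mmp17 (1.00, adjusted p = 0.1096). Among 4 tested inhibitors of these enzymes 1 was higher: Timp2, an inhibitor that also takes part in activating gelatinase A, went from 208 ± 7.22 to 464 ± 47.7 units (mean ± SD, n = 2), 2.13-fold (adjusted p = 0.00196). Of its 5 tested probe sets 3 were higher.

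The membrane subunits of the phagocyte oxidase did not move together. Cybb and Cyba encode the chains of the flavocytochrome that sits in the specific granule membrane and makes superoxide once cytosolic subunits join it. Cybb probe set 1436778_at read 6731 and 6926 units in WT and 5212 and 5086 in Ezh2 KO, 1.33-fold lower (log2 change -0.41, SE 0.063, adjusted p = 0.0049). Probe set 1436779_at, designed on the same sequence entry, read 1483 and 1550 units in WT and 1194 and 1082 in Ezh2 KO, also 1.33-fold lower (log2 change -0.41, SE 0.087, adjusted p = 0.0224). In both, each Ezh2 KO array was below each WT array. The third, 1422978_at, read 1147 and 1360 units in WT and 1272 and 987 in Ezh2 KO, and its groups overlapped (log2 change -0.15, 95% interval -0.45 to 0.14, adjusted p = 0.57). This interval includes the change of the other two. The call of 1436779_at was lost without WT replicate 1 (-0.44, adjusted p = 0.0654), WT replicate 2 (-0.38, adjusted p = 0.0992) or Ezh2 KO replicate 2 (-0.34, adjusted p = 0.0799). Cyba read 15900 and 15937 units in WT and 16370 and 15554 in Ezh2 KO, with overlapping groups and a log2 change near 0 (0.0035, 95% interval -0.13 to 0.14, adjusted p = 0.984). Its sign turned to -0.0097 with quantile normalization and to -0.07 with median centring.

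Calls among the partners of these chains were on the higher side. Of 6 tested 2 were higher and 0 lower (0 lower also at an unadjusted p under 0.05 in limma), with a median log2 change of 0.17 (0.0057 over all genes). Ncf1, the organizer subunit, went from 10682 ± 46.6 to 13717 ± 1815 units, 1.28-fold (adjusted p = 0.0383), and 2 of its 3 probe sets passed. Ncf4, another cytosolic subunit, went from 8057 ± 91.1 to 9993 ± 90.1 units, 1.24-fold (adjusted p = 0.0145). Both calls were lost with median centring (adjusted p = 0.0836 for Ncf1 and 0.0519 for Ncf4), without WT replicate 1 (0.124 and 0.059) and without WT replicate 2 (0.107 and 0.0706), and that of Ncf1 also without Ezh2 KO replicate 1 (0.124) and without a filter (0.115). The guanosine triphosphatase genes Rac1 and Rac2 had log2 changes of 0.0016 and 0.21 and did not pass (adjusted p = 0.994 and 0.0878). The 2 tested genes of other NADPH oxidases, Noxo1 and Duox1, had log2 changes of -0.18 and -0.19 and did not pass (adjusted p = 0.791 and 0.822).

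Padi4 encodes peptidylarginine deiminase 4, which citrullinates histones when neutrophils release chromatin traps. It read 824 and 943 units in WT and 543 and 636 in Ezh2 KO. Both Ezh2 KO arrays were below both WT arrays, by at least 0.36 on the log2 scale against 0.19 and 0.22 within the groups. The change was 1.49-fold lower (log2 change -0.57, SE 0.12, adjusted p = 0.0192). The call was lost without WT replicate 2 (-0.47, adjusted p = 0.1001) and, narrowly, without Ezh2 KO replicate 1 (-0.46, adjusted p = 0.0522). All 4 other deiminase genes were tested, and 0 passed in limma (0 also at an unadjusted p under 0.05), with log2 changes between -0.75 and -0.065. The brightest were Padi3 (-0.14, adjusted p = 0.671) and Padi2 (-0.065, adjusted p = 0.9195).

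**Figure D3:**
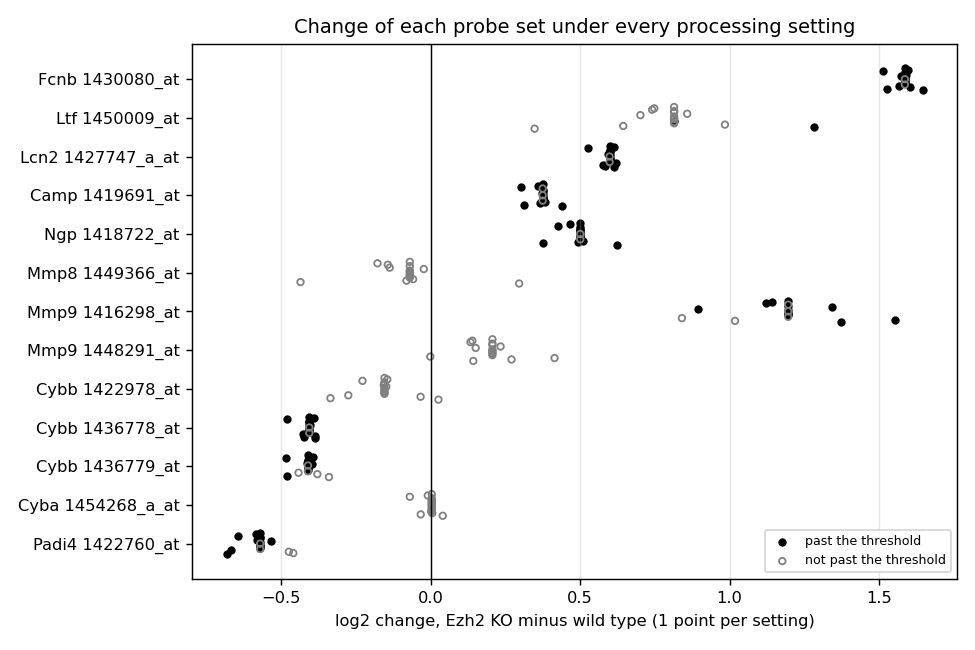
Log2 change of each probe set (horizontal axis), with 1 point for each processing setting: filled where the setting called it, open where it did not. Fcnb, Lcn2 and Ngp keep filled points in a narrow band to the right of 0, Cybb 1436778_at keeps one to the left of it, and the points of Cyba lie on both sides of 0.

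Beyond the members, other genes of neutrophil granules, with some of granulocytes more widely, were tested as a list. Of 23 tested genes 8 were higher and 0 lower (1 lower at an unadjusted p under 0.05 in limma), with a median log2 change of 0.25, against 4.52% higher, 4.66% lower and a median of 0.0057 over all genes. The members by their brightest probe sets had 5 genes higher, 2 lower and a median of 0.44. Among the 8 were Olfm4 and Pglyrp1, which encode granule proteins, with log2 changes of 0.74 and 0.56 (adjusted p = 0.000169 and 0.00359). The stefin genes Stfa2l1 and Stfa3 were also among them. They encode inhibitors of cysteine proteases in mouse granulocytes, which are not granule proteins. Stfa2l1 went from 5085 ± 244 to 13946 ± 57.3 units, 2.74-fold (adjusted p = 3.31e-06). Stfa3 went from 945 ± 111 to 2125 ± 14.7 units, 2.23-fold (adjusted p = 0.000152). The stefin A genes are close copies, so their probes may read each other's transcripts. Lysozyme, Lyz2, found in all granule classes and in monocytes, went from 5754 ± 157 to 11202 ± 799 units, 1.94-fold (adjusted p = 6.98e-05), and its copy Lyz1 may share the probes. The formyl peptide receptor gene Fpr2 went from 271 ± 4.82 to 472 ± 64.5 units, 1.69-fold (adjusted p = 0.0116; 0.0577 without Ezh2 KO replicate 1). Abundant granule genes that did not pass included Cd177, which had a log2 change of -0.20 (adjusted p = 0.167), Chil3 of -0.0044 (adjusted p = 0.981) and haptoglobin, Hp, of 0.071 (adjusted p = 0.653). Of 3 tested relatives of Fcnb and genes of the lectin pathway 0 passed in limma, and 0 had an unadjusted p under 0.05; the brightest were Mbl1 (log2 change 0.081) and Masp2 (-0.28).

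Among genes of the primary granules and of the preceding stage, at which these are made, no call was on the higher side. Of 8 tested genes 0 were higher and 2 lower by limma, and 0 and 4 at an unadjusted p under 0.05 (median log2 change -0.12). The number lower was 3 with quantile normalization, 4 with median centring and 1 without a filter. For Serpinb1a, 1 of 2 probe sets, not its brightest, was called lower. The bright genes Mpo, Elane and Prtn3 had log2 changes of 0.088, -0.033 and 0.045 and did not pass (adjusted p = 0.542, 0.865 and 0.858). Ms4a3, a marker of granulocyte and monocyte progenitors that does not encode a granule protein, went from 21689 ± 915 to 16725 ± 232 units. It was 1.30-fold lower (adjusted p = 0.00629). Ctsg, cathepsin G, went from 33219 ± 239 to 27959 ± 1506 units, 1.19-fold lower (adjusted p = 0.0424). The call of Ctsg was lost without WT replicate 1 (adjusted p = 0.132), WT replicate 2 (0.145) or Ezh2 KO replicate 2 (0.119) and without a filter (0.154). The difference between the granule classes was not tested.

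Regulators of these genes moved in both directions. Of 14 tested, 1 was higher and 3 lower, against 6 higher and 3 lower at an unadjusted p under 0.05 (median log2 change 0.11). Runx1 went from 898 ± 43.1 to 1390 ± 94.1 units, 1.54-fold higher (adjusted p = 0.00395), with 2 of its 6 probe sets called. Cebpa, the factor that opens the granulocyte lineage, went from 830 ± 108 to 530 ± 3.63 units, 1.54-fold lower (adjusted p = 0.0116; 0.0701 without WT replicate 2). Irf8, which favours monocytes over granulocytes and takes part in the transcription of Cybb, went from 2050 ± 50.4 to 1378 ± 11.02 units, 1.48-fold lower (adjusted p = 0.00238). Irf1, also known to act on the Cybb promoter, went from 1348 ± 42.3 to 938 ± 39.8 units, 1.43-fold lower (adjusted p = 0.0072). A link between either factor and the change of Cybb was not tested. Spi1, which encodes PU.1, and Csf3r, the receptor of the granulocyte growth factor, had log2 changes of -0.033 and 0.11 and did not pass (adjusted p = 0.859 and 0.489). Cebpe, the factor most tied to specific granules, was not analysed here.

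Among receptors and partners of the granule proteins 3 of 6 tested genes were higher and 0 lower (0 lower also at an unadjusted p under 0.05 in limma). They were Fpr2, the lactoferrin-binding receptor gene Lrp1 (1.48-fold, adjusted p = 0.0133) and Cd44 (1.23-fold, adjusted p = 0.0203), a surface anchor of gelatinase B. Only 1 of the 2 probe sets of Lrp1 passed, and its call was lost without WT replicate 1 (log2 change 0.54). The call of Cd44 was lost without WT replicate 1 (adjusted p = 0.0755), WT replicate 2 (0.0883) or Ezh2 KO replicate 1 (0.064), with median centring (0.0627) and without a filter (0.0632).

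Markers of other cells moved too, and their part in the granule result was not tested. Of 8 tested markers of mature neutrophils (4 higher and 2 lower at an unadjusted p under 0.05) 1 was higher, Trem1 (1.54-fold, adjusted p = 0.0118; 0.0557 without WT replicate 2), and 1 lower, Clec4d (2.27-fold lower, adjusted p = 0.00408). Only 1 of the 2 probe sets of Trem1 passed. The summed intensity of the mature neutrophil markers was 3272 to 3637 units in WT and 4032 to 4059 in Ezh2 KO. Of 7 tested monocyte and macrophage markers 2 were higher and 3 lower, and the sum was 13827 to 14333 units in WT and 11994 to 12771 in Ezh2 KO. The lower ones were Ms4a6c (1.97-fold), Cd68 (1.85-fold) and Ccr2 (1.71-fold), with adjusted p of 0.00014, 0.000326 and 0.00172. Only 1 of the 2 probe sets of Ms4a6c and 1 of the 4 of Ccr2 passed, and Cd68 had 1. Csf1r, the receptor of the macrophage growth factor, was 1.40-fold higher (adjusted p = 0.0072), by 1 of its 3 probe sets. Cx3cr1 was 1.51-fold higher by 1 of its 2 probe sets (adjusted p = 0.0288) and lost its call whichever array was left out (adjusted p = 0.0518 to 0.111). Mast cell, basophil and eosinophil markers summed to 1218 to 1304 units in WT and 2878 to 3220 in Ezh2 KO, with 2 of 5 tested genes higher, Cpa3 (17.7-fold, adjusted p = 1.35e-06) and Prg2 (4.58-fold, adjusted p = 2.63e-05). The genes of this list did not all rise, and their median log2 change depended on the filter. It was -0.041 over the 5 tested genes. Without a filter it was 0.33 over 7 genes, and with a filter at the 50th percentile 1.08 over 4. Epx (-1.55, adjusted p = 0.122) and Mcpt8 (-0.24, adjusted p = 0.234) were lower at an unadjusted p under 0.05 only. The sums were 385 to 410 and 496 to 595 units for T cell markers (1 of 4 tested higher, Cd28, which lost its call whichever array was left out, adjusted p = 0.064 to 0.148), 825 to 839 and 840 to 965 for B cell markers, 218 (both arrays) and 190 to 232 for erythroid markers, 380 to 403 and 524 to 610 for megakaryocyte markers and 579 to 632 and 496 to 593 for stromal and endothelial markers, with 0 called by limma in the last 4 lists. At an unadjusted p under 0.05 these 4 lists held 0, 0, 2 and 1 genes. Their brightest genes were Cd79b and Ms4a1, Klf1 and Epor, Itga2b and Gp9, and Pecam1 and Col1a2. Some defining markers were under the filter on mean intensity (Cd3d, Cd3g, Cd4, Cd79a, Ebf1, Hba-a1, Alas2 and Col1a1), while others in the same lists were above it and did not pass the test (Cd3e, Cd8a, Cd247, Ms4a1, Pax5, Slc4a1, Col1a2 and Cdh5).

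**Figure D4:**
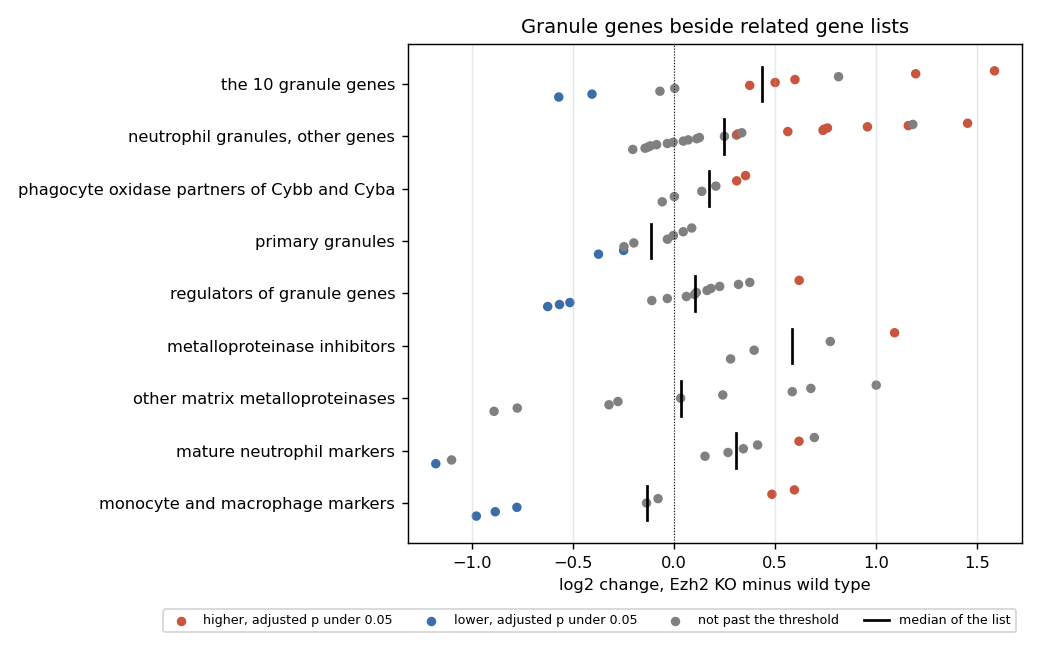
Log2 change, Ezh2 KO minus WT (horizontal axis), of each tested gene by its brightest probe set, for the 10 granule genes and for 8 related lists, in red or blue where it passed as higher or lower and in grey otherwise, with the list's median as a black line. The medians are 0.44 for the 10 granule genes (Mmp9 by 1416298_at), 0.25 for the list of other granule genes and -0.12 for the primary granule list.

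The genes closest to each member in their 4 values, each centred on its own mean, were found among 13927 others by the root mean square difference on the log2 scale. With 4 arrays in 2 groups this describes little more than the size of the change and the order of the arrays. For Camp they were Cenpp (0.0035) and Ccna2 (0.0097), a centromere gene and the gene of cyclin A. For Lcn2 the closest was Vsir (0.0101), an immune checkpoint receptor of myeloid cells, and for Padi4 it was Casp4 (0.0098), an inflammatory caspase. For Fcnb it was Lelp1 (0.046), which read only 5.18 and 6.43 units in WT and did not pass (adjusted p = 0.074).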

How the data were processed

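Total RNA was extracted with Trizol and biotin-labelled, per the labels' protocols, and hybridised to 4 one-colour Affymetrix arrays. The submitters' processing notes name Affymetrix Expression Console as the tool with which the authors made the deposited linear intensities, whose version and algorithm none of the sources used here state. The equal trimmed means were read from the values. Groups and replicate numbers came from the sample titles.

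Among 45101 probe sets were 64 controls, not tested. The platform annotation gave 1 gene symbol to 34945, several to 932 and none to 9160. Probe sets with a mean above the 30th percentile (21.93 units; 31526) were tested as log2(intensity + 16) with lmFit and eBayes of limma 3.58.1 (R 4.3.3) and an intensity-dependent prior, with 2 residual degrees of freedom (9.30 with the prior). P-values were adjusted by Benjamini-Hochberg over all probe sets tested, at a threshold of 0.05. Fold changes come from the log2 values and so understate the change of dim genes. Detection calls and probe positions were not used. Depth does not apply to arrays; their number limits the precision.

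The members, the 19 gene lists and the tests were chosen with earlier results of these data known. Of 170 list entries 147 had a probe set. A gene was represented there by its brightest one, by the mean over all 4 arrays, Ezh2 KO included. The rule named all members, Ezh2, up to 4 called genes of a list with the largest change (or its 2 brightest where none was called), and the 2 closest profiles of a member, of which only some are printed. Cd177, Chil3, Hp, Rac1, Rac2, Spi1, Csf3r, Padi1 (the lowest deiminase value), Csf1r, Epx, Mcpt8, the defining markers listed by filter and the neighbours Mrps2 and Ctsa were chosen after their values were seen. So were Mpo, Elane, Prtn3, Serpinb1a, Olfm4, Pglyrp1 and Meis1. The fit was tested on simulated data. Python 3.11.15 and matplotlib 3.10.9 drew the figures. Alternatives were other normalizations, filters, pseudocounts (1 and 64), priors, probe set rules, thresholds, a plain test, a replicate block and leaving out each array.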

Additional observations from a re-analysis of the deposited data

How the results depend on the processing

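Among the 13 probe sets, Fcnb, Lcn2, Ngp and Cybb 1436778_at passed under all 13 alternatives that kept the intensity-dependent prior, and Camp under 12 of them. With a single prior variance 0 members were called higher and 0 lower, and 0 of all probe sets; with a plain test per probe set the numbers were 0, 0 and 2. Without a filter 3 members were called higher (Fcnb, Lcn2 and Ngp), and 1392 of all probe sets. All probe sets called numbered 3656 at an adjusted p of 0.10 and 3715 with the replicate number as a block. The replicate block made Ltf pass (adjusted p = 0.0277), for 6 members higher and 3 lower. Nothing in the labels says that same-numbered arrays were paired. Their deviations from the group means correlated at 0.0358 over all tested probe sets, which cannot tell whether they were. Leaving out 1 array, where the lone array of a group is assumed to vary like the other group, gave 4 to 5 members higher, 1 to 2 lower, and 1278 to 2130 of all probe sets; without WT replicate 2 the 1 lower member was Cybb 1436778_at. Signs turned only in members that had not passed: Cyba (-0.0097 with quantile normalization, -0.070 with median centring, -0.033 without Ezh2 KO replicate 1; -0.033 to 0.040 with 1 array left out), Mmp9 1448291_at (-0.0013 without WT replicate 1; -0.0013 to 0.41), Mmp8 (0.30 without Ezh2 KO replicate 2; -0.44 to 0.30) and Cybb 1422978_at (0.026 without Ezh2 KO replicate 2; -0.34 to 0.026). With 2 arrays a group, changes of dim probe sets such as Mmp8 could not be told from the spread.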
